A study of Mus musculus with 22 samples.

Results

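The right and the left primary motor cortex (M1) of the same wild-type (WT) mouse were compared, with 1 biopsy of each side from each of 6 mice. These are 12 of the 22 biopsies of the study, 6 right and 6 left, chosen by the genotype, the side and the mouse named in the labels. All were male C57BL/6 mice aged 16 to 20 weeks on standard chow, killed by cervical dislocation, and none was treated. M1 was punctured with a needle on each side, and 10 ng of RNA per biopsy entered STRT sequencing, which tags the 5′ end of each transcript and so counts transcripts near their start sites. The other 10 biopsies, 5 right and 5 left, came from BERKO mice of the same strain, sex and age, which lack estrogen receptor beta (Esr2), and they serve as a second set of right and left pairs from separate animals. A biopsy mixes all cells at the needle tip, so fewer cells of a type and less RNA per cell cannot be told apart.

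M1 sends the crossed corticospinal tract, so each side drives mainly the opposite limbs. Its tissue holds excitatory projection neurons in layers, interneurons, astrocytes, oligodendrocytes, microglia and vessels, and the meninges lie on its surface. Rodents can prefer one paw, but that preference differs between individuals, and which paw these mice used was not analysed here. In human fetal cortex the LIM-domain regulator LMO4 was described as higher on the right, whereas in mouse cortex its asymmetry was described as varying in direction between individuals.

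Right biopsies had 847712 to 2018833 total reads and left biopsies 566702 to 1255904. The log2 difference in total reads, right minus left, averaged 0.66 ± 0.54 (SD, n = 6), with the right higher in 5 of 6 mice (two-sided exact sign-flip permutation p = 0.0625, adjusted 0.229 over 11 library measures). The smallest p that this test allows with 6 mice is 0.03125. At an equal depth of 537922 gene reads, right biopsies held 10796 ± 516 genes with a read and left biopsies 10078 ± 507 (SD, n = 6 each; exact permutation p = 0.0625, adjusted 0.229). Reads in introns took 2.36% ± 0.81 in right biopsies and 1.76% ± 0.07 in left biopsies (SD, n = 6 each; exact permutation p = 0.0625, adjusted 0.229). Mouse 3 alone gives much of that gap, at 3.96% on its right side, and without it the mean difference is 0.287 percentage points. The column names carry a code shaped like a plate well, which the labels do not explain. Its letter is A for all right biopsies, B for the left biopsies of mice 1 to 4 and C for those of mice 5 and 6, so side and letter cannot be told apart.

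**Figure D1:**
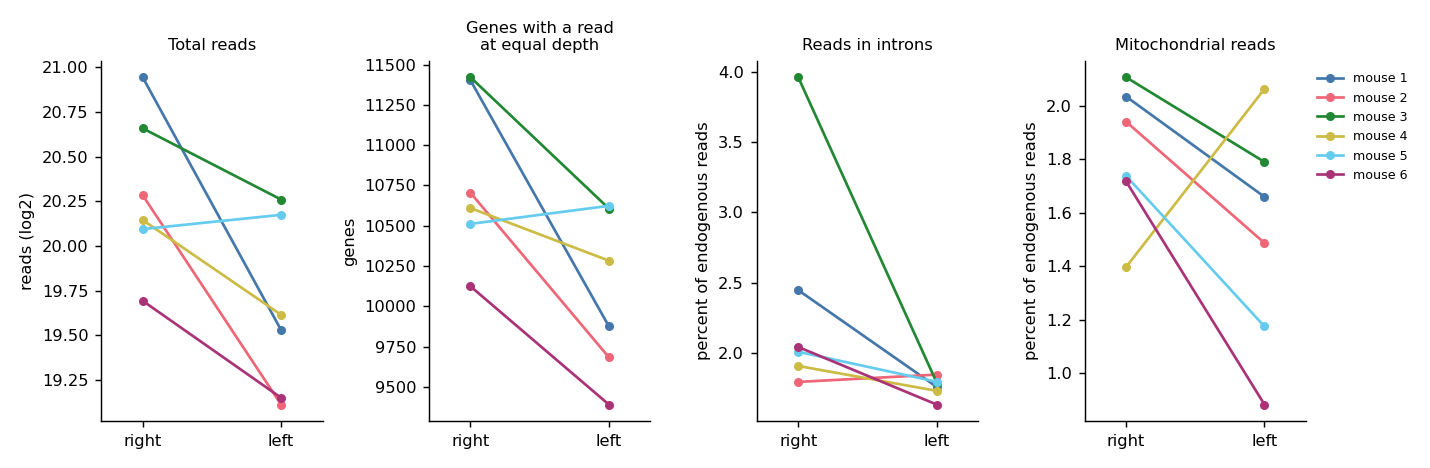
Library measures of the right and left biopsy of each WT mouse, 1 line per mouse: total reads (log2), genes with a read at equal depth, and the shares of endogenous reads in introns and on mitochondrial features (percent). The right side is higher in 5 of 6 mice in each panel.

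The excitatory marker Slc17a7, the vesicular glutamate transporter of cortical neurons, had 72.0 to 142 CPM (counts scaled to a common total of gene reads, after TMM) in right biopsies and 80.8 to 146 CPM in left biopsies, so it was present throughout. Nevertheless 3 libraries stood apart on the first principal component (23.5% of the variance). The right and left biopsies of mouse 1 lay there at -32.0 and -41.3 and the left biopsy of mouse 2 at -43.1. The other 9 lay between 0.156 and 24.9. Lamp5, a marker of superficial cortex, had 47.7 CPM in the right and 23.5 CPM in the left biopsy of mouse 1, and 164 CPM in the left biopsy of mouse 2, while each of the others had at least 631 CPM. A list of genes abundant in hypothalamus, septum and basal forebrain summed to 8648 CPM in the right biopsy of mouse 1, 10407 CPM in its left biopsy and 11035 CPM in the left biopsy of mouse 2. The other 9 biopsies summed to between 3555 and 5121 CPM, so the 3 libraries carry less of a superficial cortical marker and more of these other genes. This list was chosen with those 3 libraries already known, so its sum is no independent description of them. Since 1 of them is a right biopsy and 2 are left, the main results below are also given without mice 1 and 2. On the second component the left biopsy of mouse 6 stood apart, at -54.6, with the next lowest, the left biopsy of mouse 1, at -10.6. That biopsy of mouse 6 remains in the values without mice 1 and 2 and in those of mice 5 and 6. The libraries left in these values are thus not all alike. Esr2 itself had 3 reads in the right biopsy of mouse 1 and 0 in the other 11.

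No gene passed an adjusted p of 0.05 between right and left M1 among 7703 tested (0%; edgeR's quasi-likelihood test with the mouse as a block and Benjamini-Hochberg adjustment, smallest adjusted p = 0.523). At an unadjusted p under 0.05 there were 330 genes (4.28%), of which 189 (2.45%) were higher and 141 (1.83%) lower on the right. DESeq2 called 1 gene and limma-voom 2 on the same table, with 460 and 450 genes at an unadjusted p under 0.05. The 12 biopsies bound the difference closely only for abundant genes: the 95% interval lay within -1 and 1 on the log2 scale for 3404 genes (44.2%), namely for 94.8% of the most abundant 20% of genes and 0.454% of the least abundant 20%. The median log2 difference went with abundance, at 0.18 in the least abundant 20% and -0.06 in the most abundant 20%, while right libraries were the deeper ones; the part of depth in this was not tested. Scaling to spike-ins instead of endogenous genes moved the median of all genes to 0.16 and the share of genes above 0 to 69.4%, against 53.4% with TMM scaling, and differences below are relative to that of all genes.

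**Figure D2:**
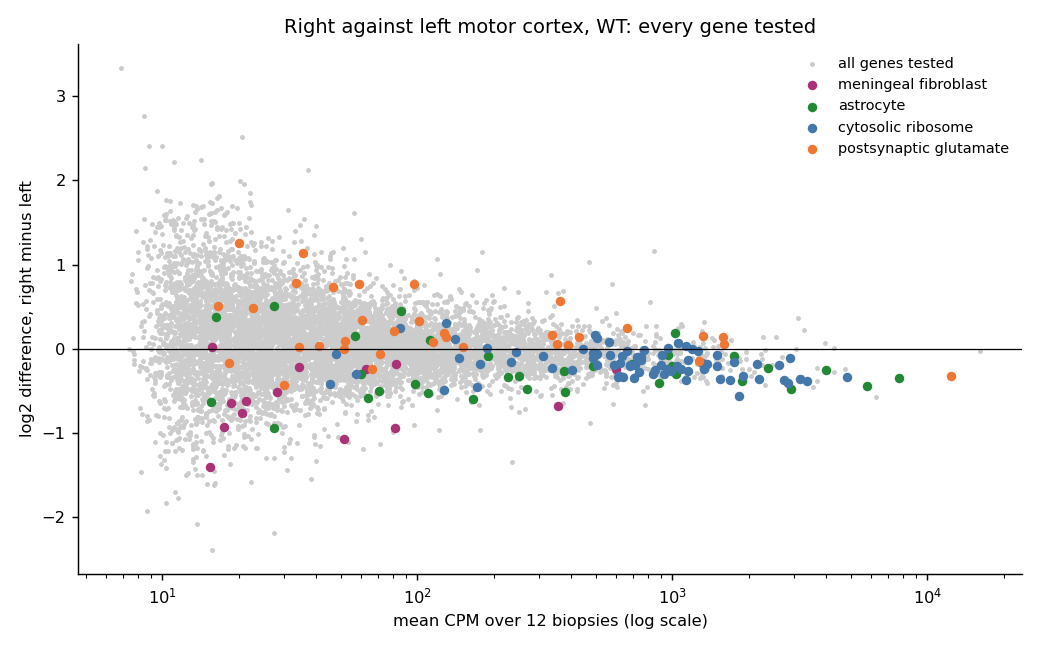
Log2 difference (right minus left) of each gene tested against its mean CPM over the 12 WT biopsies (log axis), with 4 gene lists in colour. Below 0 lie 13 of 14 meningeal, 27 of 33 astrocyte and 67 of 78 ribosomal protein genes, while 27 of the 34 postsynaptic genes lie above it.

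Nnat had the smallest p. It encodes neuronatin, a small membrane proteolipid of developing and endocrine neurons made from an imprinted gene. It had 379.8, 104, 38.5, 42.0, 104 and 62.3 CPM in the right biopsies of mice 1 to 6, against 947, 669.6, 94.8, 135, 114 and 121 CPM in their left biopsies. The right value was the lower of the pair in all 6 mice, though the groups overlap, and both biopsies of mouse 1 and the left one of mouse 2 are high. The log2 difference was -1.35 ± 0.26 (SE; 95% interval -1.90 to -0.80; adjusted p = 0.523 in edgeR). Without mice 1 and 2 it was -1.004, in mice 1 to 4 alone -1.74 and in mice 5 and 6 alone -0.51. Nnat is the gene that DESeq2 called (adjusted p = 0.00603), and limma-voom called it too (adjusted p = 0.0466). Its reads come mostly from 1 start region at position 157385845 of chromosome 2 (mm9, plus strand, annotated as 5′ UTR), which holds 85.8% of them and was lower on the right in 6 of 6 mice.

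Among the 24 genes taken in order of p with a mean of at least 20 reads per biopsy on the higher side, 13 were higher and 11 lower on the right, with unadjusted p from 6.8e-05 to 0.0034 and adjusted p from 0.523 to 1.00. Of those on the lower side, Sparc encodes a secreted matrix protein of glia and vessels. Sparc had 113 to 438 CPM (median 364) in right biopsies and 307 to 913 CPM (median 597) in left biopsies. The ranges overlap, and the right was lower in 5 of 6 mice, with a log2 difference of -0.88 ± 0.24 and -0.74 without mice 1 and 2. Tubb2b, a beta-tubulin of young neurons and growing axons, had 77.0 to 297 CPM (median 191) in right biopsies and 205 to 450 CPM (median 289) in left biopsies, lower on the right in all 6 mice (log2 difference -0.76 ± 0.19, and -0.83 without mice 1 and 2). Tubb2b has a near-identical paralog, so its reads may be shared with it. Mylk, the kinase that phosphorylates myosin light chain in smooth muscle, had 8.07 to 35.7 CPM (median 23.5) in right biopsies and 36.7 to 97.5 CPM (median 45.6) in left biopsies. Every right value of Mylk lay below every left value (log2 difference -1.34 ± 0.37, and -1.77 without mice 1 and 2). That rests on few reads, a mean of 31 per right and 42.8 per left biopsy. They are split over 19 regions, of which the largest, in an intron, held 37.9%. Genes whose sides did not overlap at all numbered 14 (0.182% of those tested), 10 with every right biopsy above (0.13%) and 4 with every right biopsy below (0.0519%).

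On the higher side, Pde1a encodes a phosphodiesterase that calcium and calmodulin activate to break down cyclic nucleotides. Pde1a had 246 to 757 CPM (median 368) in right biopsies and 122 to 488 CPM (median 217) in left biopsies. It was higher on the right in 6 of 6 mice, by 0.87 ± 0.20 on the log2 scale and 1.13 without mice 1 and 2, and the ranges overlap through the high left biopsy of mouse 1. B3galt2, a galactosyltransferase that builds glycan chains, had 200 to 490 CPM (median 265) in right biopsies and 129 to 386 CPM (median 149) in left biopsies, again higher on the right in 6 of 6 mice (0.67 ± 0.18, and 0.77 without mice 1 and 2). Snhg20, a noncoding RNA that hosts a small nucleolar RNA, had 11.2 to 212 CPM (median 40.6) in right biopsies and 8.24 to 46.1 CPM (median 17.1) in left biopsies. Its log2 difference of 1.61 ± 0.35 (1.38 without mice 1 and 2) was positive in 6 of 6 mice, while 2 right biopsies, of mice 1 and 3, stood far above the other 4. Cacna1b, the pore of N-type calcium channels at presynaptic endings, had 7.95 to 54.6 CPM (median 33.6) in right biopsies and 1.47 to 16.5 CPM (median 8.98) in left biopsies, a log2 difference of 2.00 ± 0.56 on few reads, and of 1.46 without mice 1 and 2. Tenm2, a teneurin that links synaptic partners, differed by 1.15 ± 0.29 (1.22 without mice 1 and 2), but its reads are split over many regions. An intronic region held 39.1% of them and was higher on the right in 5 of 6 mice, while the next region, in coding sequence, held 19.3% and was higher in 3 of 6.

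**Figure D3:**
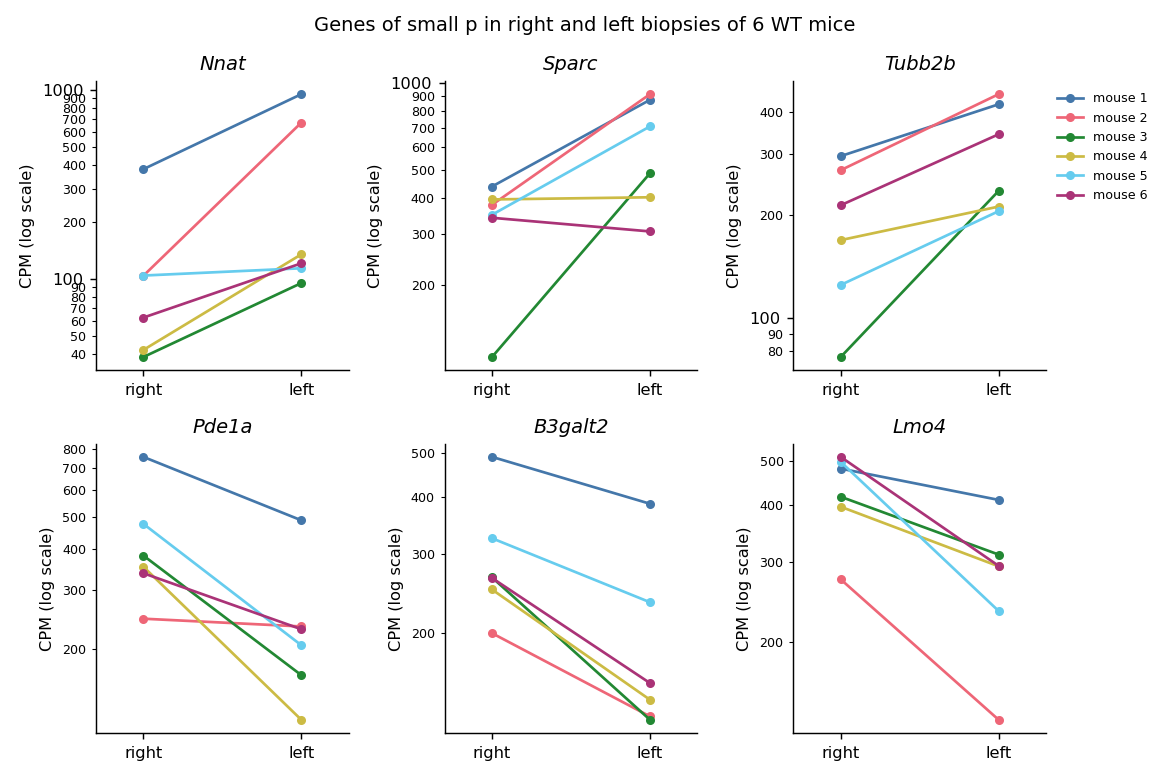
CPM (log axes) of 6 genes of small p in the right and left biopsy of each WT mouse, 1 line per mouse. Nnat and Tubb2b are lower on the right in 6 of 6 mice and Sparc in 5 of 6, while Pde1a, B3galt2 and Lmo4 are higher on the right in 6 of 6; none passed the adjusted threshold in edgeR.

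Lmo4, the LIM-domain regulator of cortical development named above, ranked among the 24. It had 482, 275, 418, 397, 499 and 511 CPM in the right biopsies of mice 1 to 6, against 411, 135, 312, 294, 234 and 294 CPM in their left biopsies. The right value was the higher of the pair in all 6 mice, and the ranges overlap, with the right biopsy of mouse 2 the lowest on its side and the left biopsy of mouse 1 the highest on its own. The log2 difference was 0.66 ± 0.18 (95% interval 0.29 to 1.03; adjusted p = 0.996), 0.68 without mice 1 and 2, 0.52 in mice 1 to 4 and 0.95 in mice 5 and 6. Right above left in all 6 mice held for 145 genes (1.88%) and the reverse for 118 (1.53%), together 263 genes (3.41%), so a shared direction is not particular to Lmo4. The pattern held at both main start regions of Lmo4 on chromosome 3 (mm9, minus strand). The region at 143865282, in the 5′ UTR, held 57.8% of its reads, that at 143864909 in coding sequence held 28.6%, and each was higher on the right in 6 of 6 mice. A smaller region at 143867830, in the 5′ UTR, held 9.44% and was higher on the right in 4 of 6.

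Because STRT reads begin at transcript starts, the 120 bases just upstream of the start are shown for the first 4 of the 24 genes, in order of p, that have a single start in RefSeq and most reads in a 5′ UTR or a first noncoding exon. Capitals mark CpG dinucleotides, and each runs 5′ to 3′ on the gene's own strand.
Nnat: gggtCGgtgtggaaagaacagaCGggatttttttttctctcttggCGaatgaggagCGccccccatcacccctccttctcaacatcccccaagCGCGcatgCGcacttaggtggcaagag
Snhg20: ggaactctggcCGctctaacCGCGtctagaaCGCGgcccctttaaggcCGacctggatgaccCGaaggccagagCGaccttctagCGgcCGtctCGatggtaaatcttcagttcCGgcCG
B3galt2: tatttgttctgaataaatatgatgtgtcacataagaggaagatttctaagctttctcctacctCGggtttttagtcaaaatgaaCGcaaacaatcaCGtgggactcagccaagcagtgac
Hivep1: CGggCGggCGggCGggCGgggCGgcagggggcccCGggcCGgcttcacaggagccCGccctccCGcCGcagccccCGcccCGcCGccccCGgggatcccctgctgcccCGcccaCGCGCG

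In RefSeq's GRCm38.p6 tables these lie at chr2:157559958-157560077 for Nnat, chr11:117076663-117076782 for Snhg20, chr1:143640577-143640696 for B3galt2 and chr13:42051901-42052020 for Hivep1, all on the plus strand. Hivep1 encodes a zinc-finger DNA-binding protein and had 28.7 to 88.7 CPM (median 51.7) in right biopsies and 5.88 to 35.7 CPM (median 25.8) in left biopsies. The windows differ in CpG content: Hivep1 has 19 CpGs, Snhg20 has 13, Nnat has 7 and B3galt2 has 3, beside a median of 3 over 32851 RefSeq promoter windows of this length. The letters TATAAA, searched on both strands, are in none of the 4 windows and in 6.34% of all windows, and CCAAT is likewise in none of the 4 and in 21.3% of all.

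Genes of the meninges mostly had lower values in right biopsies, though none passed the adjusted threshold. Of 14 fibroblast genes of the meningeal covering that could be tested, 13 had a negative log2 difference, with a list median of -0.63 beside 0.03 for all genes, of which 46.6% were negative. Of these, 4 had an unadjusted p under 0.05 on the lower side, where 1.83% of all genes did. Dcn, the collagen-binding proteoglycan decorin, had 25.7 to 91.9 CPM (median 42.9) in right biopsies and 27.5 to 219 CPM (median 104) in left biopsies, lower on the right in 6 of 6 mice. The size of the Dcn difference varied, at -0.94 ± 0.30 in all mice, -0.57 without mice 1 and 2 and -0.10 in mice 5 and 6. Mgp, the matrix Gla protein, had 175 to 328 CPM (median 255) in right biopsies and 212 to 1064 CPM (median 378) in left biopsies. The list's median over its members was below 0 in each of the 6 mice, between -0.95 and -0.61. It was -0.82 without mice 1 and 2, -0.59 in mice 1 to 4 alone and -0.90 in mice 5 and 6 alone. Its summed level ran from 619.5 to 1934 CPM in right biopsies and from 829.9 to 2705 CPM in left biopsies, with the right higher in mouse 2 alone.

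Astrocyte genes had the same sign with a smaller median, and none passed the adjusted threshold. Of 33 tested, 27 had a negative log2 difference, with a list median of -0.31, and 8 had an unadjusted p under 0.05, all lower on the right, beside 1.83% of all genes. Apoe, the lipid carrier that astrocytes secrete, had 3979 to 6013 CPM (median 4750) in right biopsies and 4611 to 9445 CPM (median 6249) in left biopsies. It was lower on the right in 6 of 6 mice, with overlapping ranges and a log2 difference of -0.44 ± 0.13. Ntsr2, a neurotensin receptor of astrocytes, had 96.8 to 174 CPM (median 123) in right biopsies and 119 to 281 CPM (median 204) in left biopsies, and Gja1, the gap junction protein connexin 43, also was lower on the right in 6 of 6 mice (log2 difference -0.48 ± 0.17). The 6 members above 0 include the glutamate transporter Slc1a2 (0.19 ± 0.16) and the bicarbonate transporter Slc4a4 (0.51 ± 0.43). The list's summed level was 22390 to 38394 CPM in right biopsies and 29675 to 47390 CPM in left biopsies, and the right was higher in 1 of 6 mice. The list median was -0.39 without mice 1 and 2, -0.35 in mice 1 to 4 and -0.26 in mice 5 and 6. It was -0.21 without mouse 3. Taken by mouse, the median over members ran from -0.86 in mouse 3 to 0.11 in mouse 2 and was above 0 in 2 of 6 mice.

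Other non-neuronal lists were mixed. Pericyte and smooth muscle genes had 7 of 9 members below 0 (median -0.33), endothelial genes 10 of 15 (median -0.17), and microglial genes 12 of 22 (median -0.08). Leaving out single mice gave -0.37 to 0.00 for the endothelial median and -0.21 to 0.00 for the microglial one, each at its highest without mouse 3, so neither had a stable direction. Within microglia the genes diverged: the chemokine receptor Cx3cr1 had 44.4 to 69.6 CPM (median 61.4) in right biopsies and 24.8 to 46.3 CPM (median 39.0) in left biopsies, while Ly86 was lower on the right in 6 of 6 mice (log2 difference -0.50 ± 0.25). Interferon and MHC class I genes had 11 of 16 below 0 (median -0.42). H2-K1, which presents peptides to T cells, had 31.1 to 64.4 CPM (median 40.6) in right biopsies and 22.0 to 147 CPM (median 85.3) in left biopsies. The median of that list depends on single mice, at -0.07 without mouse 3 and -0.74 without mouse 2. Myelin genes split evenly, 12 above and 12 below 0, and their list median ranged from -1.07 to 2.69 between mice and was -0.38 without mice 1 and 2. The myelin enzyme Cnp shows that spread, at 116 to 1524 CPM in right biopsies and 222 to 889 CPM in left biopsies, with the highest right value in mouse 2.

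The hypothalamus, septum and basal forebrain list was chosen with the libraries that stand apart on the first component already known. All 19 tested members were below 0, with a median of -0.41. Nnat is one of them, as are Calb2, the calcium buffer calretinin (-0.99 ± 0.47), and Ndn, an imprinted gene of neurons (-0.46 ± 0.18). The median was -0.17 without mouse 2 and -0.21 without mice 1 and 2, so much of it rests on the pair of mouse 2, whose left biopsy is high and whose right biopsy is not. The summed level of the list was lower on the right in every mouse but mouse 4, while Nnat was lower on the right in all 6. In mouse 4 the list summed to 3703.5 CPM on the right and 3627.5 CPM on the left, while Nnat had 42.0 and 135 CPM. The part of these regions in the side difference of Nnat was not tested, and Nnat was at -1.004 without mice 1 and 2.

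Among housekeeping groups, cytosolic ribosomal protein genes had 67 of 78 members below 0 on the log2 scale (median -0.19), and 13 had an unadjusted p under 0.05, all lower on the right, beside 1.83% of all genes. Rps10, a small-subunit protein, had 1054 to 2025 CPM (median 1442) in right biopsies and 1570 to 2899 CPM (median 2154) in left biopsies, lower on the right in 6 of 6 mice (log2 difference -0.56 ± 0.15). The summed level of the list was lower on the right in 6 of 6 mice, at 57859 to 86075 CPM against 77053 to 102577 CPM in left biopsies, with overlapping ranges. The median of the list was -0.12 without mouse 3 and -0.22 without mice 1 and 2. Taken by mouse, it was above 0 in 2 of 6, at 0.03 in mouse 2 and 0.04 in mouse 4. Such genes have many processed pseudogenes, so single members are uncertain, and most lie among the most abundant 20% of genes, whose own median was -0.06. Of those 1541 most abundant genes, 946 were below 0. Glycolysis genes had 16 of 18 below 0 (median -0.17). Taken by mouse, their median ran from -0.60 to 0.13, above 0 in 3 mice and below 0 in 3. It was -0.03 in mice 5 and 6 alone, so no direction held over the mice. Gapdh had 2043 to 4208 CPM (median 2879) in right biopsies and 3292 to 4823 CPM (median 4288) in left biopsies. Its log2 difference was -0.46 ± 0.16, but -0.26 without mice 1 and 2. Nuclear genes of oxidative phosphorylation had 55 of 79 below 0, with a median of -0.07 beside -0.06 for the most abundant 20% of genes. Cholesterol synthesis genes had 16 of 21 below 0 (median -0.16).

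Postsynaptic glutamate genes mostly had a positive log2 difference, while channel and synaptic vesicle genes were less one-sided, and none passed the adjusted threshold. Of 34 postsynaptic glutamate genes, 27 had a positive log2 difference (median 0.14), beside 53.4% of all genes, and the list's median over members was above 0 in each of the 6 mice, from 0.06 to 0.40. Dlgap1, a scaffold of the postsynaptic density, had 352 to 480 CPM (median 437) in right biopsies and 156 to 454 CPM (median 336) in left biopsies, higher on the right in 5 of 6 mice. The adhesion protein Nlgn1 differed by 0.76 ± 0.30 and the metabotropic receptor Grm2 by 1.14 ± 0.43. An intronic region held 48.2% of the Nlgn1 reads and differed by 1.70 ± 0.42. The summed level of the list did not follow, since it was higher on the right in 1 of 6 mice. Potassium channel genes had 24 of 35 above 0 (median 0.18), sodium and calcium channel genes 11 of 17 (median 0.14) and synaptic vesicle genes 20 of 35 (median 0.03). The potassium channel median was 0.10 without mouse 2 and 0.04 without mice 1 and 2, and that of sodium and calcium channels was -0.12 without mice 1 and 2. For comparison, the 2 least abundant groups of 20% of all genes had medians of 0.18 and 0.12.

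Neuron class markers gave no common direction. Excitatory cortical markers had 10 of 13 above 0 (median 0.14), deep-layer markers 7 of 13 (median 0.16), upper-layer markers 4 of 10 (median -0.11) and interneuron markers 6 of 17 (median -0.09). The upper-layer median was 0.39 without mice 1 and 2, and taken by mouse it was above 0 in 5 of 6, so the sign of the fitted median is not that of most mice. Its summed level averaged 2825 ± 1135 CPM in right biopsies and 2261 ± 839 CPM in left biopsies (SD, n = 6 each), higher on the right in 5 of 6 mice. Gad1, which makes GABA, differed by 0.38 ± 0.20, and Sst, the somatostatin of one interneuron class, by -0.48 ± 0.26. Axon and cytoskeleton genes had 25 of 41 below 0 (median -0.04), among them Gap43, a growth cone protein (-0.65 ± 0.22). Inhibitory synapse genes split 9 to 9, and immediate early genes, which report recent neuronal activity, had 11 of 18 above 0 (median 0.05).

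**Figure D4:**
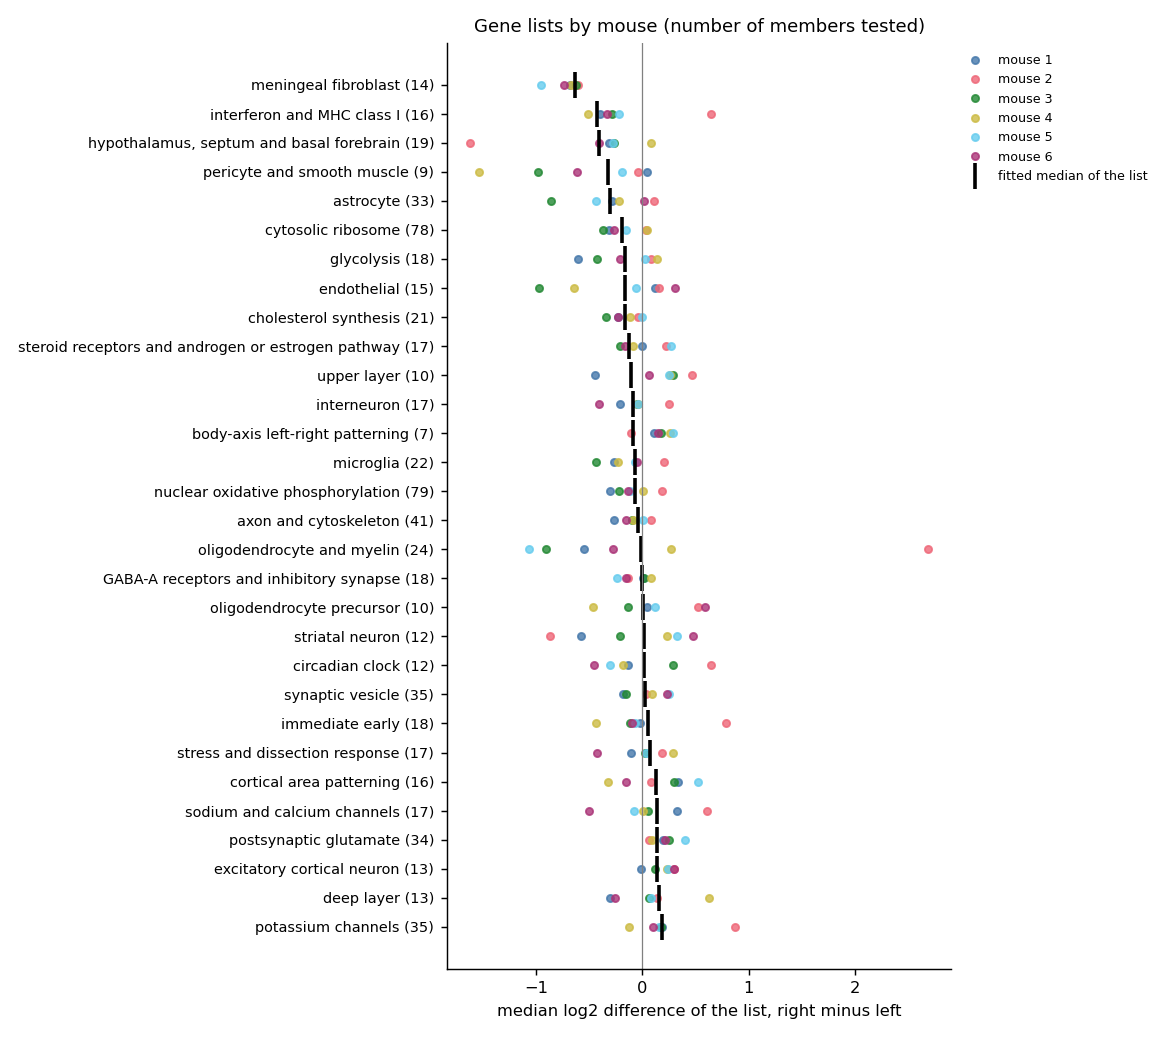
Median log2 difference (right minus left) over the members of each gene list, as 1 point per WT mouse, with a black bar at the median of the fitted differences; the number of members tested is in brackets. The meningeal list is below 0 in 6 of 6 mice and the postsynaptic list above 0 in 6 of 6, while myelin ranges from -1.07 to 2.69.

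Genes that pattern the left and right of the embryo are represented by 7 tested members of 26 listed, with 19 present in the table. Besides Lmo4, placed in that list for its described asymmetry, the activin receptor Acvr2b had a log2 difference of -2.08 ± 0.82 and the cilium motor Kif3b one of 0.87 ± 0.41, both on few reads. The list had 3 members above and 4 below 0. Of 16 cortical area patterning genes, 10 were above 0 (median 0.13), and Nr2f2, an orphan nuclear receptor, had the lowest value of the list, at -1.14 ± 0.34 and -1.16 without mice 1 and 2. In steroid receptor and sex hormone genes, 11 of 17 were below 0 (median -0.12), but without single mice the median was -0.07 to 0.02, so no direction held.

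At the level of the deposited start regions, 0 of 9280 passed an adjusted p of 0.05 and 319 (3.44%) had an unadjusted p under 0.05 in edgeR, whose smallest adjusted p was 0.999. The 5 regions of smallest p were those of Nnat, Snhg20, an Arpp19 intron, Pde1a and Got1 coding sequence. The Arpp19 region, at 74899920 of chromosome 9 (mm9, plus strand), had a log2 difference of 1.90 ± 0.43 and was higher on the right in 6 of 6 mice, whereas Arpp19 as a gene differed by 0.22 ± 0.19. The Got1 region, at 43579095 of chromosome 19 (mm9, minus strand), had one of -2.18 ± 0.54, whereas Got1 as a gene differed by -0.11 ± 0.19. Both regions thus depart from the sum of their gene.

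In BERKO mice 0 of 6488 genes passed an adjusted p of 0.05 between right and left, and 329 (5.07%) had an unadjusted p under 0.05 in edgeR. The side difference in WT minus that in BERKO was tested directly for 8308 genes; 0 passed, 271 (3.26%) had an unadjusted p under 0.05, and the smallest adjusted p was 0.998. Of the 24 WT genes of small p, 19 could be tested in BERKO and 15 had the same sign there, 9 of the 10 lower ones and 6 of the 9 higher ones, while 52.9% of all genes tested in both genotypes had the same sign. Nnat differed by -1.04 ± 0.42 in BERKO, B3galt2 by 0.69 ± 0.28, Pde1a by 0.37 ± 0.20, Lmo4 by 0.29 ± 0.19 and Sparc by -0.33 ± 0.17, all with the sign they had in WT. Tenm2 was at 0.00 ± 0.27 in BERKO, Hivep1 at -0.14 ± 0.42 and Cacna1b at -0.34 ± 0.88, and none of these was shown to differ between genotypes (adjusted p = 0.998 in edgeR for each interaction). Pgrmc1, a membrane heme-binding protein linked to progesterone, had the opposite sign in the genotypes, at -0.50 ± 0.20 in WT and 0.42 ± 0.18 in BERKO (adjusted p = 0.998 in edgeR for the interaction). The WT value of Pgrmc1 was -0.26 without mice 1 and 2, whose left biopsies had its highest levels, at 667 and 870 CPM.

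The meningeal and astrocyte lists had like values in these separate animals. The meningeal median was -0.63 in WT and -0.59 in BERKO, where 11 of 13 members were below 0, and the astrocyte median was -0.31 in WT and -0.30 in BERKO, where 29 of 33 were. The interferon and MHC class I median was -0.42 in WT and -0.43 in BERKO, and H2-K1, at -0.85 ± 0.33 in WT, had the smallest p of all genes in BERKO, at -1.24 ± 0.31. Excitatory markers had a median of 0.14 in WT and 0.38 in BERKO. Other lists differed more. The ribosomal protein median was -0.19 in WT and 0.00 in BERKO, where 39 of 78 members were below 0, and the glycolysis median was -0.17 in WT and 0.02 in BERKO, where 8 of 18 were. The interneuron median was -0.09 in WT and 0.19 in BERKO, and that of the hypothalamus, septum and basal forebrain list was -0.41 in WT and -0.20 in BERKO; no list was tested between genotypes. In BERKO too the right biopsies share a code letter that no left biopsy has, so letter and side cannot be told apart there either. Total reads were higher on the right in 4 of 5 BERKO mice. Among these is mouse 5, whose left biopsy has 1 lane (249751 reads) and whose right biopsy has 3 (768122 reads).

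**Figure D5:**
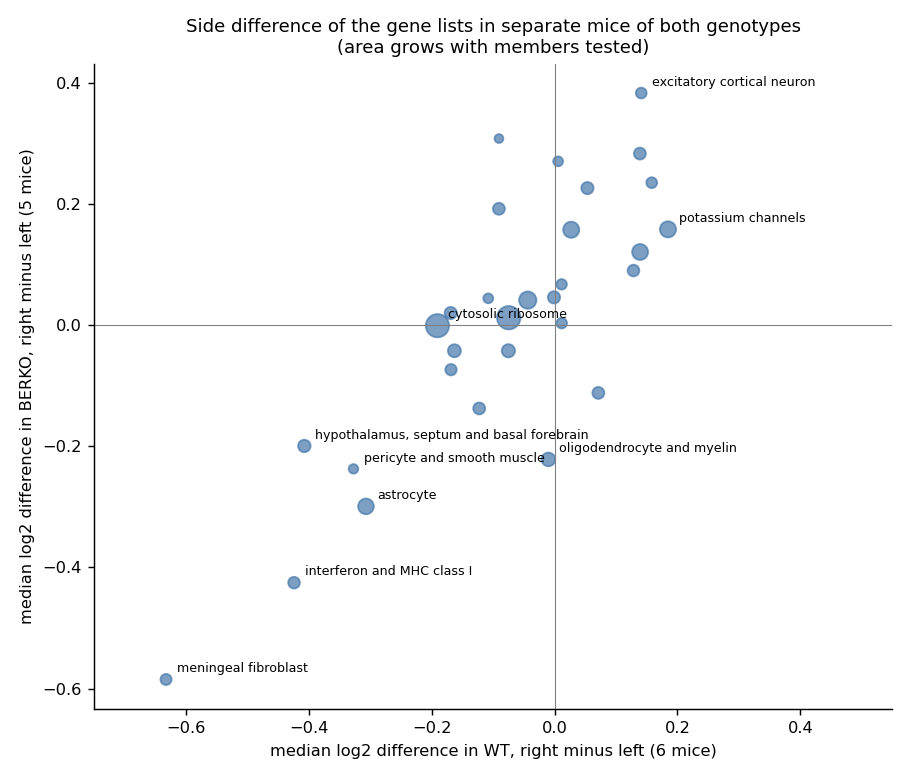
Median log2 difference (right minus left) of each gene list in 6 WT mice (x axis) and in 5 BERKO mice (y axis), 1 point per list with an area that grows with its members. The meningeal list lies near -0.6 on both axes and the astrocyte list near -0.3, while the ribosomal list is at -0.19 in WT and 0.00 in BERKO.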

How the data were processed

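The deposited counts are whole numbers of reads per start region and lane, made with Bowtie and TopHat2 2.0.12 on mm9 per the submitters' processing notes. No molecular identifiers were counted, so PCR copies are included, and intervals cover counting error and the spread between mice only. The deposited ratios to spike-in reads were not used. Spike-in scaling took the spike-in reads among the counts, and the annotation gave the symbol, place and class of each region. All 64 count columns were matched by side, genotype and mouse number as read from their names. Lanes of a biopsy were summed, 3 for each WT biopsy; lanes 1 and 3 of WT biopsies had a chi-square per gene of at most 0.849, against at least 2.22 between biopsies of a group, and other lanes were not checked. Regions with 1 symbol were summed to 15297 genes; regions with several or none, and ribosomal repeat and spike-in features, stayed out, the former holding 4.28% to 7.08% of endogenous reads.

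Right minus left was fitted with edgeR 4.0.16 in R 4.3.3 (quasi-likelihood, robust, TMM, default filter, two-sided, Benjamini-Hochberg, 0.05) with the mouse as a block. The labels name the mouse of each biopsy, so sides are paired, with columns tied to mice through the last number in their names; the deviations of right and left correlated by -0.16 to 0.45 over the mice, above 0.1 in 2 of 6. The common biological coefficient of variation was 41.2%. DESeq2 1.42.0 and limma 3.58.1 were alternatives. Fits were tested on simulated data. Library measures used two-sided exact sign-flip permutation tests over 64 sign patterns. Named genes are the 24 next in p (mean of 20 reads or more on the higher side), the 8 highest and 8 lowest with 50 reads or more and 1 sign in all mice, the 3 smallest p of each of 32 lists and of the interaction, and the 5 smallest p regions. Other genes named as list members, and the genes of which start regions are given, were picked once their values had been seen. The mice, comparison and lists were chosen with earlier results of these data known. Sequences are RefSeq's. A gene that the naming rule takes is not reported here.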

Additional observations from a re-analysis of the deposited data

Results flagged for a closer look

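Within each side, each reported named gene, list sum and library measure was searched for a biopsy far from the other 5, as a gap to its neighbour that exceeds Dixon's 95% critical share of the whole range of the 6. Of 330 groups examined, 36 (10.9%) held such a biopsy, where chance gives about 1 in 20 for independent normal values. These skewed CPM values and overlapping lists are not such values, and 13 of the 36 are from the right biopsy of mouse 1, so the share has no exact expectation. The right biopsy of mouse 1 was outlying for hypothalamus, septum and basal forebrain genes in sum at 8648 CPM (others 3555 to 4491 CPM), Nnat at 379.8 CPM (others 38.5 to 104 CPM), Lman2l at 93.8 CPM (others 10.6 to 40.05 CPM) and Gas5 at 77.3 CPM (others 6.62 to 30.4 CPM). In that biopsy, so were Wdr6 at 326 CPM (others 55.7 to 146 CPM), Ttr at 479 CPM (others 19.3 to 93.2 CPM), Bhlhe40 at 19.9 CPM (others 119 to 177 CPM, here low) and Nr2f2 at 203 CPM (others 15.9 to 30.5 CPM). Further values there were Resp18 at 689 CPM (others 215 to 297 CPM), Jun at 339 CPM (others 34.3 to 140.4 CPM), Calb2 at 273 CPM (others 16.8 to 37.9 CPM) and Pgrmc1 at 474 CPM (others 278 to 342 CPM). It held as well Il1f9 at 88 CPM (others 2.8 to 23.5 CPM). The right biopsy of mouse 2 was outlying for Cnp at 1524 CPM (others 116 to 585 CPM) and Hspa5 at 478 CPM (others 189 to 293 CPM). The right biopsy of mouse 3 was outlying for intron reads at 3.96% (others 1.79 to 2.45%), noncoding reads at 3.83% (others 2.43 to 2.93%), Sparc at 113 CPM (others 342 to 438 CPM, here low) and Fcho1 at 109 CPM (others 51.5 to 70.2 CPM). In that biopsy, so were Dlgap2 at 205 CPM (others 29.6 to 54 CPM), Ndufa1 at 347 CPM (others 204 to 254 CPM) and Arpp21 at 365 CPM (others 138 to 205 CPM). The right biopsy of mouse 5 was outlying for Sbp at 256 CPM (others 0 to 56 CPM). The left biopsy of mouse 1 was outlying for blood genes in sum at 364 CPM (others 88.8 to 192 CPM), Pde1a at 488 CPM (others 122 to 233 CPM), Alas2 at 187 CPM (others 0 to 54.1 CPM) and Resp18 at 1071 CPM (others 261 to 531 CPM). The left biopsy of mouse 2 was outlying for Gap43 at 855 CPM (others 287 to 460.1 CPM) and Ly86 at 143 CPM (others 75.4 to 96.9 CPM). The left biopsy of mouse 3 was outlying for Mvd at 80.3 CPM (others 36.7 to 51.5 CPM), Neurod2 at 71.8 CPM (others 44.4 to 50.8 CPM) and Adcy5 at 45.3 CPM (others 2.04 to 15.4 CPM). The left biopsy of mouse 4 was outlying for Acvr2b at 45.3 CPM (others 9.65 to 22 CPM) and Mgp at 1064 CPM (others 212 to 482 CPM). The left biopsy of mouse 6 was outlying for Tmem176b at 211 CPM (others 94.8 to 113 CPM) and Igfbp4 at 149 CPM (others 41 to 76.4 CPM).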

How the results depend on the processing

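The count of 0 genes past an adjusted p of 0.05 stayed at 0 with RLE size factors, spike-in scaling, a stricter filter, promoter features alone, thinning to equal depth, the spread of all 22 biopsies, without mice 1 and 2, and without each mouse in turn. Without the mouse as a replicate block it was also 0, with 292 genes at an unadjusted p under 0.05, against 330 with the block. It was 1 with DESeq2 (Nnat), 2 with limma-voom (Nnat and Snhg20) and 10 with no filter (Hcrt, Meg3, Mir124a-1, Nnat, Pde1a, Snhg11, Snhg20, Sparc, Tenm2 and Trh). The alternatives added after seeing the data gave 0 genes in mice 1 to 4 and 56 in mice 5 and 6, a fit of 4 biopsies whose spread rests on 1 residual degree of freedom and on the fit across genes. Genes at an unadjusted p under 0.05 numbered 238 to 472 without single mice, 135 with spike-in scaling, 596 with no filter and 583 in mice 5 and 6. With no filter, 9 start regions and 1 BERKO gene passed, and 1127 regions had an unadjusted p under 0.05; the cause was not tested. Some named genes turned sign. Got1 was at 0.0253 with spike-in scaling, which moved the median of all genes alike, to 0.16 from 0.03, and so is no turn relative to other genes; it was at 0.0215 with promoter features alone and between -0.293 and 0.00432 without single mice, Arpp19 at -0.17 with promoter features alone, and Bhlhe40 at -0.0291 in mice 1 to 4. Enpp2 ran from -0.16 to 0.33 without single mice, and was at -0.20 without mice 1 and 2 and -0.14 in mice 5 and 6. Without single mice, Neurod2 ran from -0.54 to 0.00854 and Ttr from -0.71 to 0.14. In mice 5 and 6, Tle4 was at -0.32, Resp18 at 0.0401, Sst at 0.0614 and Rgs5 at 0.23. Leaving out single mice moved the right minus left share of reads from -0.501 to 0.337 percentage points in coding sequence, from -0.207 to 0.419 in 3′ UTRs and from -0.028 to 0.362 in noncoding features, and the log2 ratio of endogenous to spike-in reads from -0.12 to 0.25. Depth limits scarce genes most: in the least abundant 20% of genes the median SE was 0.71 on the log2 scale, against 0.19 in the most abundant 20%.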
